A study of Mus musculus with 8 samples.

Results

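The leukocyte integrins described here are a set of 10 genes chosen by name: the β2 chain gene Itgb2 with its α partners Itgal, Itgam and Itgax, the β7 chain gene Itgb7 with Itgae and Itga4, and the β1 chain gene Itgb1 with Itga4, Itga5 and Itga6. They were found by symbol in the deposited table of read counts, and all 10 are among its 13305 genes. RNA-seq was performed on whole bone marrow (BM) of 8 mice, 1 library per mouse, to compare a mouse model of acute myeloid leukemia (AML) with and without the docking protein Gab2. All mice had a C57BL/6N background, carried the Mx1-Cre transgene, were heterozygous for Dnmt3a (Dnmt3a+/-) and had the internal tandem duplication on both Flt3 alleles (Flt3ITD/ITD). They differed in Gab2: 3 AML WT mice were Gab2+/+, 2 AML HET mice Gab2+/- and 3 AML KO mice Gab2-/-, so that no mouse without the leukemia alleles is included. Mx1-Cre is driven by an interferon-inducible promoter and is active in blood cells as well as other tissues, and the Gab2 knockout allele carries a neomycin cassette in place of the later exons. The age of these mice is not given in the sources used here.

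Integrins are receptors made of 1 α and 1 β chain, and a chain reaches the cell surface only together with its partner. On leukocytes they carry adhesion to endothelium, to other cells and to the extracellular matrix. The β2 family (CD18) is restricted to leukocytes and includes LFA-1 (Itgal, CD11a), Mac-1 (Itgam, CD11b) and the CD11c receptor (Itgax). Itga4 (CD49d) pairs with Itgb1 to form VLA-4, which binds Vcam1 and fibronectin and holds progenitors in the marrow, or with Itgb7 to form the receptor for gut homing. Itgae (CD103) pairs with Itgb7 alone and binds E-cadherin, while Itga5 and Itga6 pair with Itgb1 in receptors for fibronectin and laminin.

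Itgam and Itgax lie side by side on the plus strand of chromosome 7 (GRCm38, GENCODE M21), Itgam from 128062640 to 128118491 and Itgax from 128129547 to 128150657. The 150 bases before the start of both genes and of Itga4 are shown here, because Itgam and Itgax share a locus and a β partner but differ in their values below, with Itga4 as an integrin of another family. The sequences and the starts used here are from RefSeq for GRCm38.p6, whose Itgax start lies downstream of the GENCODE start, so that the last 3 bases of that stretch fall inside the GENCODE gene. This table held a promoter window (250 bases before to 50 bases after the start) for 6 of the 10 genes, and capitals mark matches to the letters GAGGAA (core of PU.1 sites), TGTGGT (RUNX core) and GGGCGG (Sp1 box) on either strand:
Itgam (chr7:128062490-128062639, plus strand): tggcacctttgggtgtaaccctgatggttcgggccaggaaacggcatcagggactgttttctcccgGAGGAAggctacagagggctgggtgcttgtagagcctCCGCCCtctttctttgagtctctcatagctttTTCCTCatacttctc
Itgax (chr7:128129400-128129549, plus strand): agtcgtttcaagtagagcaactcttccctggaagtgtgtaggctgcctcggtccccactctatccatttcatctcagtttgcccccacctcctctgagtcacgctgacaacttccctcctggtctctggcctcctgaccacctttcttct
Itga4 (chr2:79255276-79255425, plus strand): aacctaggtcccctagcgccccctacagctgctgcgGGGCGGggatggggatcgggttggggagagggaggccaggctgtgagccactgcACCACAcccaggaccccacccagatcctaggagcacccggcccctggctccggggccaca

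The stretch before Itgam holds GAGGAA in both orientations and 1 Sp1 box, the stretch before Itga4 holds an Sp1 box and a RUNX core, and none of the letters searched for stands in the stretch before Itgax. Over the full windows, GAGGAA was present in 4 of 6 integrin promoters (Itgam, Itgb1, Itgb7 and Itga5) and in 28.3% of 32851 promoters in all, and GGGCGG in 4 of 6 (Itga4, Itgam, Itgb1 and Itga5) and in 35.7% of all. TGTGGT was present in 2 of 6 (Itga4, and Itgax at 14 bases after the start) and in 16.8% of all. The STAT letters TTCNNNGAA were present in 0 of 6 and in 8.3% of all promoters. The matched letters do not overlap one another, and the counts describe letters only. Itgal, Itgae, Itgb2 and Itga6 had no window in that table.

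Gene counts summed to 28009258 to 39266815 in the single mice (median 32049876). Gab2 itself followed the labels: AML WT mice had 74.7 ± 17.0, AML HET mice 53.3 ± 3.57 and AML KO mice 40.8 ± 6.15 CPM (counts scaled to library size with TMM, given as mean ± SD for n = 3, 2 and 3), and the knockout allele keeps the first exons. Ptprc (CD45), the pan-leukocyte marker, had 571, 570 and 572 CPM in the AML WT mice, 589 and 475 in the AML HET mice and 319, 422 and 396 in the AML KO mice. All AML KO mice were below all other mice for Ptprc, as they were for Itgax, and AML KO differed from AML WT by −0.59 on the log2 scale (standard error 0.14, unadjusted p = 0.00206, adjusted p = 0.0742 in edgeR; called by DESeq2 with 0.00424). The part of Ptprc-expressing cells in the integrin values was not tested. All 8 mice were fitted together with the quasi-likelihood test of edgeR, adjusted by Benjamini-Hochberg over all 13305 genes, and a gene is called changed at an adjusted p under 0.05. The mice are separate animals, and the comparisons with AML WT share the same 3 AML WT mice.

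Levels of the 10 genes can be compared with each other only per transcript length. In AML WT BM, the β chains stood at the top, with 225 ± 30.1 CPM per kb of the longest coding transcript for Itgb7, 135 ± 10.1 for Itgb2 and 84.9 ± 3.62 for Itgb1 (SD, n = 3 each). The α chains followed with 55.3 ± 3.72 CPM per kb for Itgam, 48.3 ± 10.5 for Itgal, 25.1 ± 8.91 for Itga4, 18.1 ± 1.03 for Itga5, 12.0 ± 4.46 for Itga6 and 10.5 ± 2.87 for Itgax. Itgae was lowest at 3.86 ± 1.51 CPM per kb, and the mean of Itgb7 was 58.4 times that of Itgae on this scale. Neighbours in this order overlapped between mice for Itgam and Itgal, for Itga4 and Itga5 and for Itga6 and Itgax, and the other neighbours did not overlap. With all annotated exons as the length, Itgax stood above Itga6 and the ranges of Itga6 and Itgae overlapped as well. On both lengths, each β chain gene was above each of its α partners in mean level, also in AML HET and AML KO BM. In AML KO BM Itga5 (17.2 ± 2.87 CPM per kb) stood above Itga4 (15.5 ± 2.52). Itgam shares 3450 exon bases with Gm49368 on the same strand, and Itga4 shares 1124 with Cerkl on the other strand. How reads in shared bases were counted is not known, so the places of Itgam and Itga4 in this order are uncertain.

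**Figure D1:**
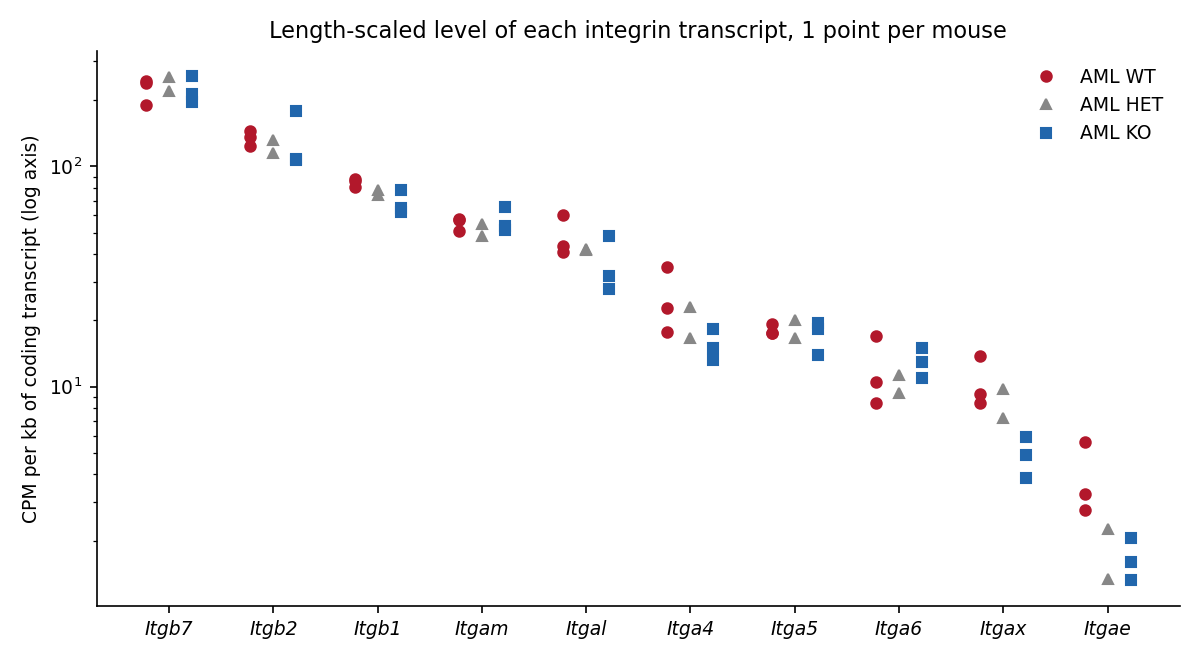
Length-scaled level of each of the 10 integrin transcripts (CPM per kb of the longest coding transcript, log axis), 1 point per mouse, for AML WT (circles), AML HET (triangles) and AML KO (squares). The 3 β chains lead on this length, and Itgb7 lies at 191 to 245 in AML WT mice against 2.75 to 5.58 for Itgae. Exon bases that Itgam and Itga4 share with other genes were not taken out.

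The comparison of AML KO with AML WT BM asks how the loss of Gab2 changed the integrin transcripts. Itgax was the 1 of 10 integrins that fell at the threshold, to 46.8% of the AML WT mean. Over all genes 2.09% were called in either direction and 0.323% were called lower. Itgae, Itga4 and Itgb1 were also lower at an unadjusted p under 0.05 and were not called. This makes 4 of 10 integrins at that limit, all of them lower, against 17.7% of all genes in either direction and 7.88% lower. This number was 2 without AML KO mouse 1 or AML KO mouse 3, and 6 without AML KO mouse 2. It was 3 without AML WT mouse 1, and also with the replicate number as a block. All genes at that limit numbered 2349 with all mice. They numbered 1245 without AML KO mouse 1, 1908 without AML KO mouse 3 and 3236 without AML KO mouse 2. The fitted log2 fold change was below 0 for 8 of 10 integrins and for 51.9% of all genes, and its median was −0.19 over the integrins and −0.02 over all genes. Values of AML KO and AML WT mice did not overlap for 3 integrins (Itgax, Itgae and Itgb1), all lower in AML KO, while 22.1% of all genes had no overlap in either direction and 9.83% were lower without overlap.

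**Figure D2:**
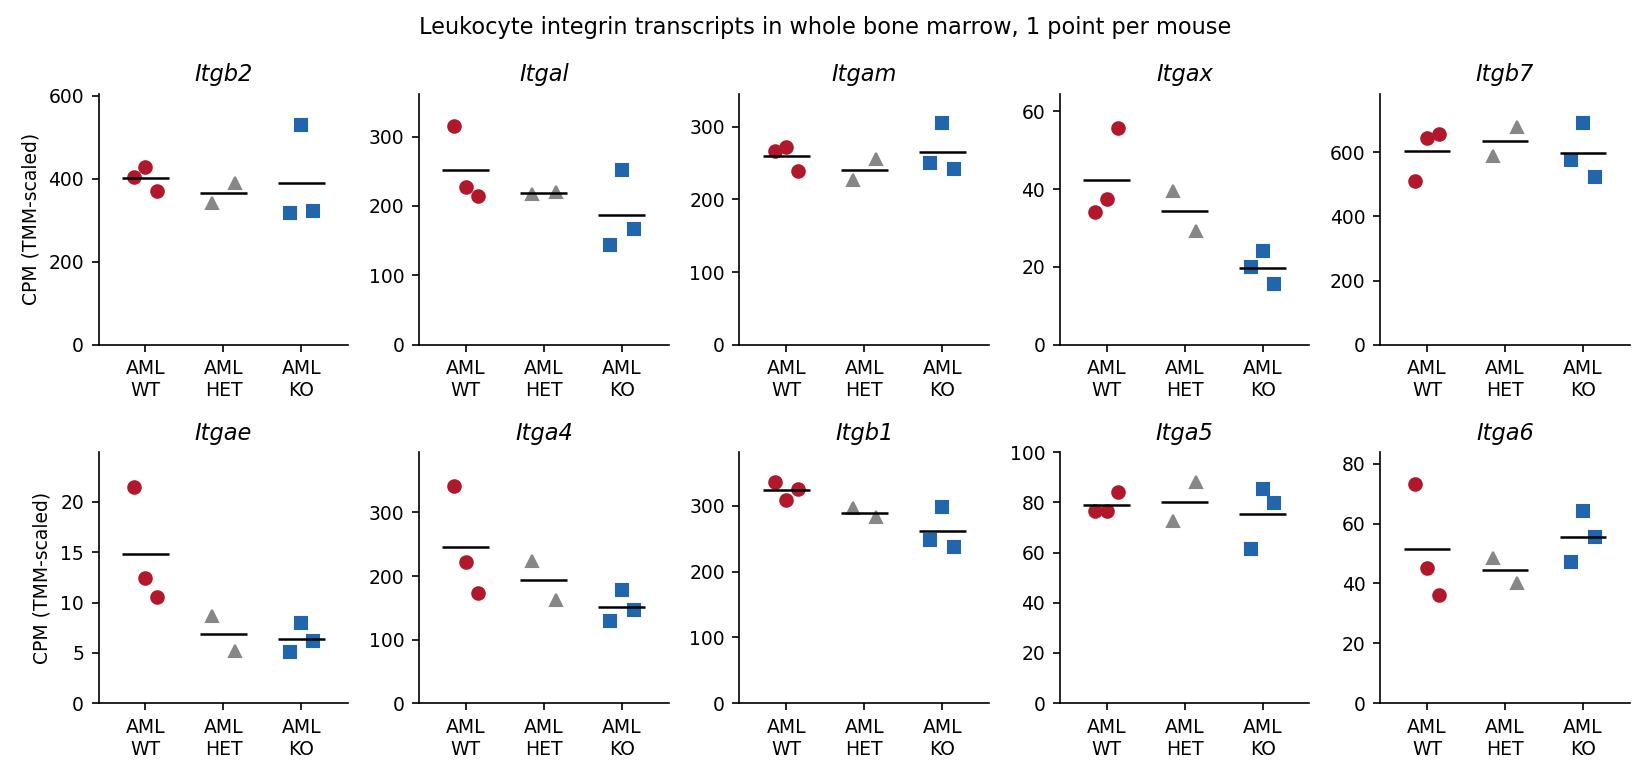
TMM-scaled CPM of the 10 integrin transcripts, 1 panel per gene and 1 point per mouse, with a line at the group mean and axes that start at 0. Itgax lies at 15.6 to 24.0 CPM in the 3 AML KO mice, below all AML WT (34.0 to 55.6) and AML HET (29.1 to 39.4) mice, while Itgam and Itgb7 overlap between all groups.

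Within the β2 family, the common chain Itgb2 (ENSMUSG00000000290, chromosome 10 from 77530252 to 77565708) had 405, 429 and 370 CPM in the AML WT mice, 342 and 390 in the AML HET mice and 317, 530 and 322 in the AML KO mice. The highest and the lowest of the 8 values were both from AML KO mice. In AML KO relative to AML WT BM, Itgb2 had a log2 difference of −0.04 (standard error 0.20, edgeR adjusted p = 0.918), and it was between −0.33 and 0.09 when single mice were left out.

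Itgam (ENSMUSG00000030786), the α chain of Mac-1 on neutrophils, monocytes and macrophages, had 267, 272 and 239 CPM in AML WT, 227 and 255 in AML HET and 250, 305 and 241 in AML KO mice. These ranges overlapped for each pair of groups. Its log2 fold change was 0.04 (standard error 0.13, edgeR adjusted p = 0.897), with −0.08 to 0.10 when single mice were left out. The annotation places a second coding gene, Gm49368, on the same strand with 3450 exon bases in common with Itgam. Gm49368 is not listed in the table, and reads that fit both genes could not be separated.

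Itgax (ENSMUSG00000030789), the CD11c chain of dendritic cells and some monocytes and macrophages, had 34.0, 37.5 and 55.6 CPM in AML WT, 39.4 and 29.1 in AML HET and 19.9, 24.0 and 15.6 in AML KO mice. Every AML KO mouse was below every AML WT and AML HET mouse, and the 2 groups with functional Gab2 overlapped. The AML WT level was 2.14-fold above AML KO, a log2 fold change of −1.10 (standard error 0.23, edgeR adjusted p = 0.0457). The call was close to the threshold. It was kept without AML WT mouse 1 (adjusted p = 0.0427) and without AML KO mouse 2 (0.0408), and it was lost without AML WT mouse 2 (edgeR adjusted p = 0.110), AML WT mouse 3 (0.0925), AML HET mouse 1 (0.0698), AML HET mouse 2 (0.0704), AML KO mouse 1 (0.127) or AML KO mouse 3 (0.174). The log2 fold change lay between −1.26 and −0.85 in these 8 fits. In bulk RNA, fewer cells that express a gene and less RNA per cell cannot be told apart, which holds for this and each following value.

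Itgal (ENSMUSG00000030830, chromosome 7 from 127296260 to 127335138), the LFA-1 chain of lymphocytes and myeloid cells, had 315, 227 and 214 CPM in AML WT, 217 and 220 in AML HET and 144, 251 and 167 in AML KO mice. AML KO mouse 2 was above 2 of the 3 AML WT mice, and the other 2 AML KO mice were below all of them. The log2 fold change was −0.43 (standard error 0.22, edgeR adjusted p = 0.324). The α chains of the β2 family therefore had values of −1.10, −0.43 and 0.04 in the same comparison.

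In the β7 family, Itgb7 (ENSMUSG00000001281, minus strand of chromosome 15 from 102215995 to 102231944) had 511, 645 and 657 CPM in AML WT, 589 and 681 in AML HET and 575, 691 and 525 in AML KO mice. All groups overlapped. Its log2 fold change was −0.02 (standard error 0.15, edgeR adjusted p = 0.957), and the sign turned with upper-quartile scaling (0.0029) and without some single mice.

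Itgae (ENSMUSG00000005947, chromosome 11 from 73090583 to 73147446), the CD103 chain of intraepithelial lymphocytes and a subset of dendritic cells, had 21.5, 12.5 and 10.6 CPM in AML WT, 8.66 and 5.16 in AML HET and 5.07, 7.93 and 6.13 in AML KO mice. It was the integrin with the fewest counts, 155 to 873 per mouse, and all AML HET and AML KO mice were below all AML WT mice. The AML WT mean was 14.8 ± 5.82 CPM (SD, n = 3), and AML WT mouse 1 stood far above the other two. AML KO BM differed from AML WT by −1.22 on the log2 scale (standard error 0.32), with an unadjusted p of 0.00346 and an adjusted p of 0.0986 in edgeR. DESeq2 called it, with an adjusted p of 0.00578. Without AML WT mouse 1 the log2 fold change was −0.86. Haspin, a gene on the other strand inside Itgae with 0 shared exon bases, had a mean of 31.8 CPM in AML WT mice against 30.0 in AML KO mice (log2 fold change −0.08, edgeR adjusted p = 0.694); it was looked up after the values of Itgae were seen.

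Itga4 (ENSMUSG00000027009, chromosome 2 from 79255426 to 79333123), the α chain shared by VLA-4 and the β7 gut homing receptor, had 342, 222 and 173 CPM in AML WT, 224 and 163 in AML HET and 129, 178 and 147 in AML KO mice. AML KO mouse 2 was above AML WT mouse 3, so that the groups overlapped by this pair. The log2 fold change was −0.70 (standard error 0.25), with an unadjusted p of 0.0179 and an adjusted p of 0.218 in edgeR. It was between −0.90 and −0.39 in the fits without 1 mouse. Cerkl shares 1124 exon bases with Itga4 on the other strand and had means of 2.18 CPM in AML WT mice against 1.89 in AML KO mice. How reads in the shared bases were assigned is not known, so these means do not measure them.

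In the β1 family, Itgb1 (ENSMUSG00000025809, chromosome 8 from 128685654 to 128733200) had 336, 309 and 326 CPM in AML WT, 297 and 283 in AML HET and 248, 299 and 238 in AML KO mice. All 5 mice with a Gab2 knockout allele were below all AML WT mice, and the steps were small. The AML WT level of Itgb1 was 1.24-fold above AML KO (log2 fold change −0.31, standard error 0.12, unadjusted p = 0.0301, adjusted p = 0.248 in edgeR).

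Itga5 (ENSMUSG00000000555, minus strand of chromosome 15 from 103344286 to 103366763), of the classical fibronectin receptor, had 76.5, 76.5 and 84.3 CPM in AML WT, 72.6 and 88.0 in AML HET and 61.3, 85.3 and 79.8 in AML KO mice. The lowest and the second highest value came from AML KO mice. Its log2 fold change was −0.07 (standard error 0.15, edgeR adjusted p = 0.819), with −0.16 to 0.06 without single mice.

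Itga6 (ENSMUSG00000027111, chromosome 2 from 71745616 to 71858416), of laminin receptors on stem cells and platelets, had 73.1, 45.2 and 36.2 CPM in AML WT, 48.6 and 40.2 in AML HET and 47.3, 64.3 and 55.5 in AML KO mice. AML WT mice held both the highest and the lowest value. The log2 fold change of 0.11 (standard error 0.24, edgeR adjusted p = 0.816) ran from −0.08 to 0.44 when single mice were left out.

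**Figure D3:**
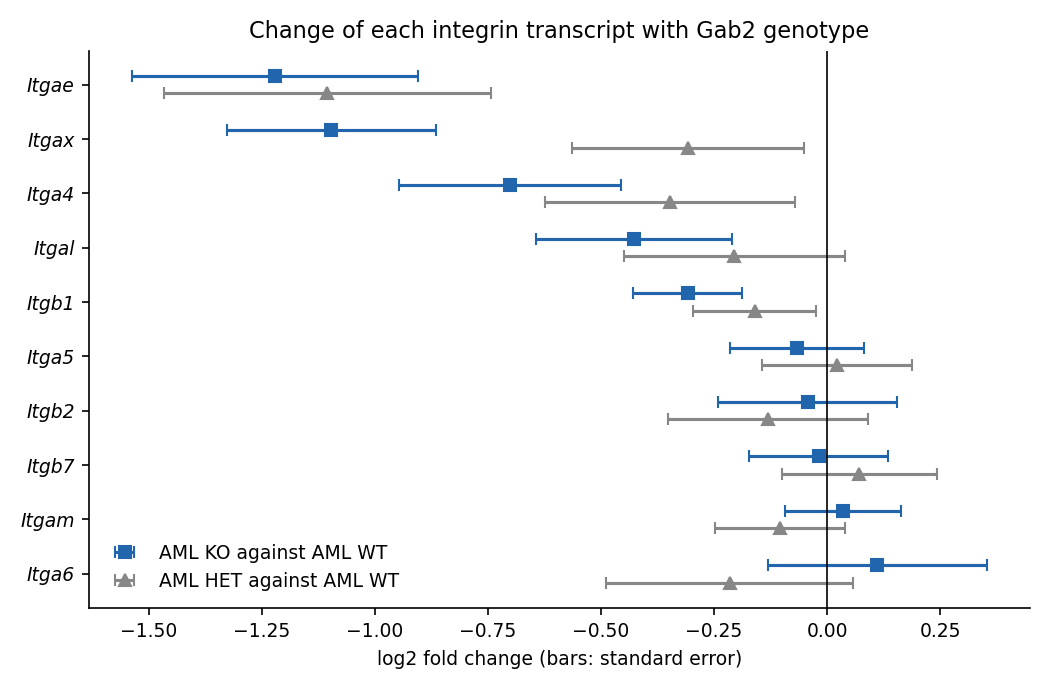
Log2 fold change of each integrin transcript against AML WT from the edgeR fit, for AML KO (squares) and AML HET (triangles), with bars of 1 standard error. Itgae and Itgax lie at −1.22 and −1.10 in AML KO, and in AML HET Itgae lies at −1.10 and Itgax at −0.31; both comparisons use the same AML WT mice.

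The comparison of AML HET with AML WT BM asks what the loss of 1 Gab2 allele does. In it 0 of 10 integrins passed the threshold, with 0.0225% of all genes called. By DESeq2 and limma-voom 0 integrins were called as well. Itgae was the 1 integrin at an unadjusted p under 0.05 (2.47% of all genes in either direction, 0.819% lower), at a log2 fold change of −1.10 (standard error 0.36, unadjusted p = 0.0127, adjusted p = 0.990 in edgeR) and an AML HET mean of 6.91 ± 2.47 CPM (SD, n = 2). Itgae and Itgb1 did not overlap between AML HET and AML WT mice, 2 of 10 integrins, both lower, against 18.1% of all genes in either direction and 8.61% lower. For Itgax, the AML HET mean was 80.8% of the AML WT mean and the log2 fold change −0.31 (standard error 0.26, edgeR adjusted p = 0.990). For the other integrins the AML HET mean was between 78.6% and 105% of the AML WT mean.

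Between AML KO and AML HET BM, 0 of 10 integrins and 0% of all genes were called by edgeR, and 0 integrins by DESeq2 and limma-voom. Itgax was the 1 integrin at an unadjusted p under 0.05 (5.86% of all genes in either direction, 2.34% lower), at a log2 fold change of −0.79 (standard error 0.25, unadjusted p = 0.0115, adjusted p = 0.735 in edgeR), and the 1 integrin whose mice did not overlap (24.2% of all genes in either direction, 11% lower). Itgae differed by −0.12 (standard error 0.35) between these groups. Read side by side, the AML HET mice were near AML KO for Itgae and nearer to AML WT for Itgax. That these 2 genes differ in the position of AML HET was not tested.

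Taken as a trend over 2, 1 and 0 functional Gab2 alleles in all 8 mice, Itgax was again the 1 integrin called (2.64% of all genes, 0.526% lower). It fell by 0.55 on the log2 scale per lost allele (standard error 0.12, edgeR adjusted p = 0.0372). This call was lost without AML WT mouse 2 (edgeR adjusted p = 0.0676), AML WT mouse 3 (0.106), AML HET mouse 2 (0.0607), AML KO mouse 1 (0.134) or AML KO mouse 3 (0.133). The Itgae trend was −0.61 per allele (standard error 0.16, edgeR adjusted p = 0.0814), and it passed the threshold without AML KO mouse 2 (0.0467). At an unadjusted p under 0.05, 4 of 10 integrins had a trend (Itgax, Itgae, Itga4 and Itgb1), all downward, against 20.2% of all genes in either direction and 9.05% downward. This number was 3 without AML KO mouse 1 or AML KO mouse 3, 5 without AML WT mouse 3 and 6 without AML KO mouse 2. Means fell in the order AML WT, AML HET, AML KO for 5 of 10 integrins (Itgax, Itgae, Itgal, Itga4 and Itgb1), an order found in 27.4% of all genes.

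Since an α chain needs its β chain, the ratio of their counts was computed within each mouse for 8 pairs (log2 of α over β counts, pseudocount 0.5), which does not depend on library scaling. The ratio of Itgax to Itgb2 was −3.57, −3.52 and −2.73 in AML WT, −3.12 and −3.74 in AML HET and −3.99, −4.46 and −4.36 in AML KO mice. All AML KO mice were below all other mice for this pair, with a mean of −4.27 ± 0.25 against −3.27 ± 0.47 in AML WT (SD, n = 3 each). The ratio of Itgae to Itgb7 was −4.57, −5.69 and −5.96 in AML WT, −6.09 and −7.04 in AML HET and −6.82, −6.44 and −6.42 in AML KO mice. Here all AML HET and AML KO mice were below all AML WT mice, with a mean difference between AML KO and AML WT of −1.15. Itgal to Itgb2 was −0.36, −0.92 and −0.79 in AML WT and −1.13, −1.08 and −0.95 in AML KO mice, a difference of −0.36 without overlap. As CPM, Itgal did not separate these groups.

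These 3 pairs each had an exact two-sided permutation p of 0.1, which is the smallest that 3 mice against 3 allow, and 0.267 after adjustment over the 8 pairs. The other pairs overlapped between AML KO and AML WT mice. Differences were −0.64 for Itga4 to Itgb7, −0.34 for Itga4 to Itgb1, 0.11 for Itgam to Itgb2, 0.23 for Itga5 to Itgb1 and 0.48 for Itga6 to Itgb1, with exact permutation p of 0.2 to 0.4 before adjustment. Without AML WT mouse 3, 5 of 8 pairs had no overlap, the added ones being both Itga4 pairs. Leaving out a mouse can only keep or raise this number. Among single genes, 22.1% had no overlap between AML KO and AML WT mice in either direction and 9.83% were lower without overlap. The share among ratios of other gene pairs was not computed. Itgax and Itgae also had no overlap as CPM, and several of the 8 pairs share a chain, so the pairs are not separate observations.

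**Figure D4:**
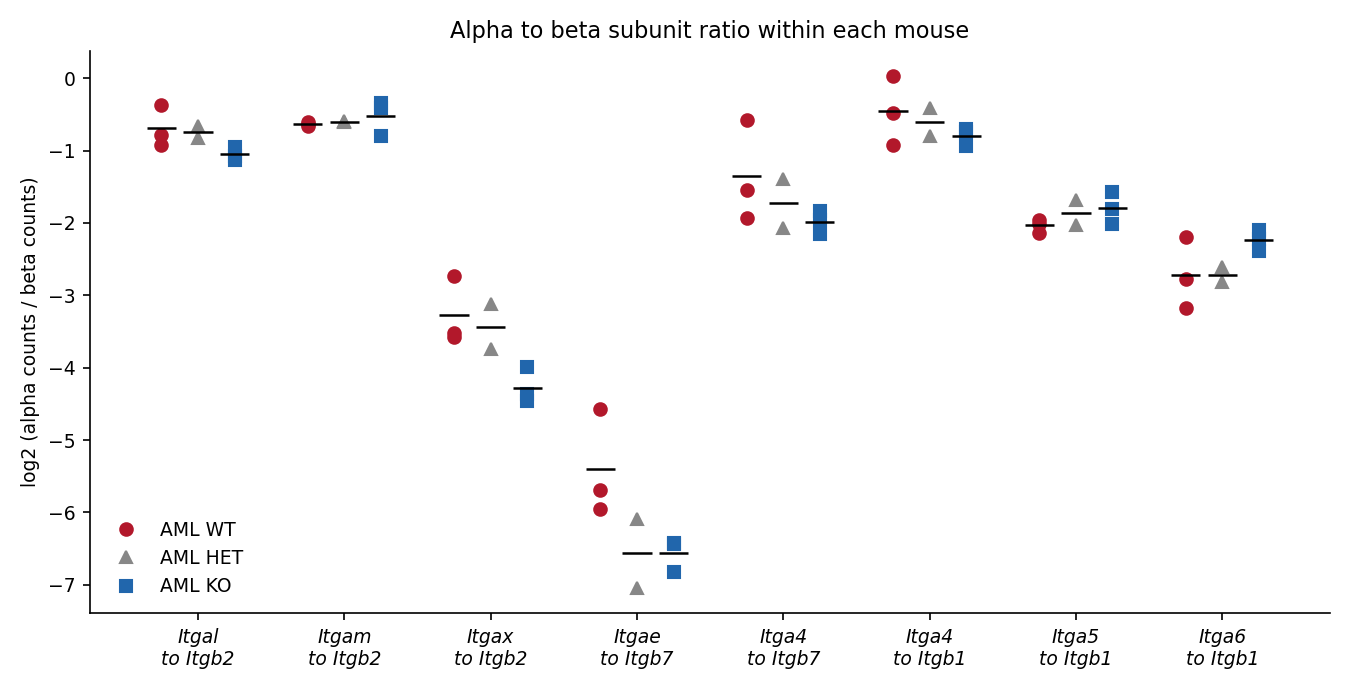
Log2 ratio of α chain counts to β chain counts within each mouse for 8 integrin pairs, with a line at the group mean. The AML KO mice lie below all AML WT mice for Itgal to Itgb2, Itgax to Itgb2 and Itgae to Itgb7, and overlap with them for the other 5 pairs.

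Itgam, Itgax and Itgad, a further β2 partner, stand next to each other on chromosome 7, and the region lies 30.8 Mb from Gab2 on the same chromosome. Within 0.5 Mb of Itgam, 32 other genes were tested, and Itgax was the 1 gene called between AML KO and AML WT. The share called over all genes was 2.09% in either direction. Of the 32 genes, 10 had a log2 fold change below 0 (51.9% of all genes). An unadjusted p under 0.05 in edgeR was found for 6 of the 32 (17.7% of all genes in either direction). The log2 fold changes ranged from −1.10 (Itgax) to 1.14 (Ccdc189), with a median of 0.13. Itgad was near 1 CPM (AML WT 0.979 ± 0.253, AML KO 1.23 ± 0.344, SD, n = 3 each), at a log2 fold change of 0.33 (standard error 0.36, edgeR adjusted p = 0.618). The 3 adjacent α genes thus had −1.10, 0.04 and 0.33.

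The integrins differed in how they varied over the 8 mice. By Pearson's r of log2 CPM over 8 mice, given as a description, the most alike pairs were Itgae and Itga4 (0.91), Itgam and Itgb2 (0.88) and Itgal and Itga4 (0.87), and the least alike were Itgb7 and Itga6 (−0.53). AML WT mouse 1 had the highest value of Itgae, Itga4 and Itgal, and AML KO mouse 2 that of Itgam and Itgb2. How far these r rest on single mice was not tested. Itgax had 0.85 with Itgb1, 0.20 with its partner Itgb2 and −0.18 with its neighbour Itgam. Among 12682 genes with a mean of at least 1 CPM, the one most like Itgax was Cd83 (0.98), a surface protein of mature dendritic cells. Cd83 averaged 22.4 CPM in AML WT against 7.72 CPM in AML KO mice (log2 fold change −1.54, edgeR adjusted p = 0.122).

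The genes most like the other integrins were Spred2 (0.99) and Il1rl2 (0.97) for Itgae, Eefsec (0.98) and Mknk2 (0.97) for Itgam, Gm13509 (0.99) and Ap3b1 (0.99) for Itgal, and Sema3f (0.99) and Arpc1b (0.98) for Itgb2. For Itga4 they were Insr (0.99) and Papola (0.99), for Itgb1 Cttnbp2nl (0.99) and Frmd4b (0.99), for Itgb7 H2-T-ps (0.96) and Rgs3 (0.96), for Itga5 Asna1 (0.94) and B4galt2 (0.94), and for Itga6 Ston2 (0.98) and Cpd (0.97). None of these genes passed the threshold in AML KO against AML WT. The values are the highest of 12682 for each integrin, and the 8 mice share genotype groups and library scaling.

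Markers of the cells that carry Itgax and Itgae moved as follows. The 7 dendritic cell markers (Cd209a, Zbtb46, Xcr1, Clec9a, Siglech, Batf3 and Ccr7, without Itgax) were all lower in fitted log2 fold change in AML KO than in AML WT BM, with a median of −0.96, 4 at an unadjusted p under 0.05 (17.7% of all genes in either direction, 7.88% lower) and 0 called by edgeR. Their summed level was 149, 214 and 374 CPM in AML WT, 240 and 172 in AML HET and 156, 127 and 108 in AML KO mice. Without AML WT mouse 1, 1 of the 7 was called. DESeq2, which called 730 of all 13305 genes, called 1 of the 7 lower. AML WT mouse 3 had the highest sum and the highest Itgax, and AML WT mouse 1 had a sum below that of AML KO mouse 1 while its Itgax was above. Of the 8 macrophage markers in the table, 4 were higher and 4 lower in fitted value. Among them 5 had an unadjusted p under 0.05 in edgeR (17.7% of all genes in either direction). The calls were 1 lower (Mrc1) and 1 higher (Cd5l), against 2.09% of all genes in either direction. Mrc1 had a log2 fold change of −0.87 (edgeR adjusted p = 0.0156). This call was lost without AML WT mouse 2 (0.0580), AML KO mouse 1 (0.0516) or AML KO mouse 3 (0.0635). Cd5l averaged 0.370 CPM in AML WT against 1.84 CPM in AML KO mice (edgeR adjusted p = 0.0387), a call lost without any 1 of the AML WT or AML KO mice (0.0614 to 0.134). With the replicate number as a block, neither Mrc1 (edgeR adjusted p = 0.0967) nor Cd5l (0.0911) was called. The macrophage sum was 318 to 390 CPM in AML WT, 242 to 285 in AML HET and 177 to 280 in AML KO mice. The 9 T and NK cell markers summed to 20.5 to 55.4 CPM in AML WT, 27.5 to 47.3 in AML HET and 27.1 to 32.8 in AML KO mice, with 0 called by edgeR and 2 of 9 at an unadjusted p under 0.05 (17.7% of all genes in either direction). None of these genes was at 0 in any mouse, and their part in the Itgax and Itgae values was not tested.

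Other cell types that carry integrins also differed between the groups. The 12 neutrophil markers, of cells rich in Itgam and Itgb2, were all higher in AML KO than in AML WT BM. Of these 12, 7 were called (2.09% of all genes in either direction). This count was 0 without AML WT mouse 2, 2 without AML KO mouse 1, 3 without AML KO mouse 3, 4 without AML KO mouse 2 or either AML HET mouse and 11 without AML WT mouse 3. With the replicate number as a block it was 0. The neutrophil sum was 1363 to 4794 CPM in AML WT, 5505 to 6196 in AML HET and 10627 to 17335 in AML KO mice, beside the overlapping Itgam and Itgb2 values. The 7 monocyte markers were all lower in fitted value with 0 called by edgeR and 3 at an unadjusted p under 0.05 (17.7% of all genes in either direction, 7.88% lower), and their sum was 4618 to 5450 CPM in AML WT, 4264 to 4643 in AML HET and 3426 to 4796 in AML KO mice. The 8 megakaryocyte and platelet markers were all called higher (2.09% of all genes in either direction). Of the 8, 5 were called without AML WT mouse 2 and 4 with the block. The sums of these markers were 21.8 to 24.0 CPM in AML WT, 36.3 to 56.3 in AML HET and 137 to 198 in AML KO mice. The part of these cell types in the integrin values was not tested.

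The remaining integrin subunits were counted by lists. Of 17 other subunit genes, 12 are in the table (Itga2, Itga7, Itga11, Itgb6 and Itgb8 are not), of which 7 had a log2 fold change below 0 and 5 above, with a median of −0.07. Itga2b, the platelet α chain, and Itgb2l, a β2-like chain, were called higher. These are 2 of 12 genes, against 2.09% of all genes called in either direction. Itga2b was at 12.8, 13.4 and 12.5 CPM in AML WT, 19.9 and 32.2 in AML HET and 122, 75.5 and 78.7 in AML KO mice, and it kept an edgeR adjusted p under 0.05 without each single mouse. Itgb2l was at 9.56, 12.5 and 25.3 CPM in AML WT, 26.6 and 29.6 in AML HET and 60.2, 65.8 and 51.5 in AML KO mice, which do not overlap. Its log2 fold change was 1.91 (standard error 0.31, edgeR adjusted p = 0.0163). The call was lost without AML WT mouse 2 (0.0883) or AML KO mouse 3 (0.0514), and with the replicate number as a block (0.0792). Itgb3, the platelet β chain and partner of Itga2b, averaged 71.3 ± 19.9 CPM in AML WT against 123 ± 9.76 CPM in AML KO mice (SD, n = 3 each; log2 fold change 0.79, standard error 0.18, edgeR adjusted p = 0.0645), and it passed the threshold without AML WT mouse 1 (0.0107).

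Of 25 listed integrin ligands, 17 are in the table, with 9 below and 8 above 0 in log2 fold change and a median of −0.02. Of the 17, 2 were called higher and 1 lower, against 2.09% of all genes in either direction and 0.323% lower. Spp1 (osteopontin) was called lower, with 87.6, 89.7 and 88.3 CPM in AML WT, 59.1 and 49.96 in AML HET and 34.0, 32.7 and 33.5 in AML KO mice, and its mice did not overlap between any groups. Vcam1, the ligand of Itga4 with Itgb1, was called higher, with 12.4, 10.5 and 12.8 CPM in AML WT, 16.8 and 16.8 in AML HET and 19.5, 32.0 and 20.9 in AML KO mice. Its log2 fold change was 1.02 (standard error 0.20, edgeR adjusted p = 0.0344). This call was lost without AML WT mouse 1 (0.0826), AML WT mouse 2 (0.150), AML WT mouse 3 (0.0594), AML HET mouse 1 (0.0710), AML HET mouse 2 (0.0709) or AML KO mouse 3 (0.0740). It was also lost with AML WT and AML KO mice alone (0.0707) and with the replicate number as a block (0.156). Vcam1 and Itga4 thus had fold changes of opposite sign, of which that of Itga4 was not called. Thy1, a ligand of Itgam with Itgb2 and of Itgax with Itgb2, was also called higher, from 48.7 ± 10.9 to 91.4 ± 6.66 CPM (SD, n = 3 each; log2 fold change 0.91, standard error 0.17, edgeR adjusted p = 0.0255). For Thy1 the call was lost without AML WT mouse 2 (0.0998), AML HET mouse 1 (0.0520), AML HET mouse 2 (0.0527), AML KO mouse 1 (0.0769), AML KO mouse 2 (0.0528) or AML KO mouse 3 (0.0740). It was also lost with AML WT and AML KO mice alone (0.0521) and with the block (0.122). Icam1, the main ligand of LFA-1 and Mac-1, had a log2 fold change of −0.47 (edgeR adjusted p = 0.274) and Fn1 (fibronectin) of −0.78 (edgeR adjusted p = 0.326); both were looked up after their values were seen.

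The proteins that switch integrins to their active state and signal from them showed 0 calls among 30 of 31 listed genes (Ilk is not in the table) by edgeR, with 1 at an unadjusted p under 0.05 (17.7% of all genes in either direction), 14 below and 16 above 0, and a median log2 fold change of 0.01. The smallest p-values belonged to Parvb (0.39, edgeR adjusted p = 0.275), the adaptor of the parvin family, Rasgrp2 (0.32, 0.284), the exchange factor for Rap1, and Fyb (−0.29, 0.294), an adaptor in inside-out activation.

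**Figure D5:**
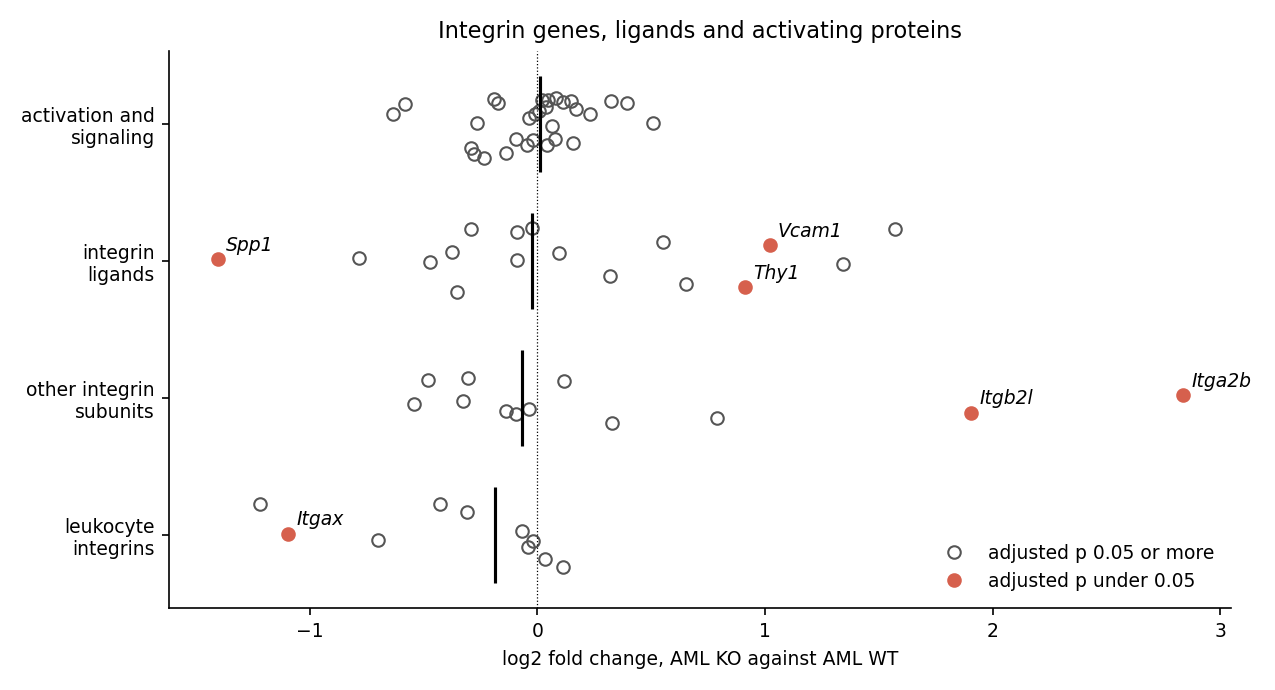
Log2 fold change of each gene of 4 lists in AML KO relative to AML WT BM, with the list median as a vertical bar and filled points for genes with an adjusted p under 0.05. Itgax is the 1 filled point of the 10 leukocyte integrins, and the activation and signaling genes lie between −0.64 and 0.51 with none filled.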

How the data were processed

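Whole BM RNA of 8 mice was sequenced, and the authors deposited 1 table of raw read counts per gene without normalization. The submitters' processing notes name Trimmomatic 0.36, STAR 2.5.2b and mm10; the counting tool, its strand setting and its annotation are not given in the sources used here. GENCODE M21 (GRCm38) gave symbols and positions for 13266 of 13305 Ensembl identifiers. The lowest row total is 106 counts.

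Counts were scaled with TMM and fitted in edgeR 4.0.16 (quasi-likelihood test, limma 3.58.1, R 4.3.3) with the genotype as the only term; filterByExpr removed no gene. Standard errors were derived from the F statistic. The trend used the number of functional Gab2 alleles. The fit was tested on simulated counts of 13305 genes. Between AML KO and AML WT, 59 of 100 simulated 2-fold changes and 91 of 100 simulated 4-fold changes were called, with 11 false calls. A gene that was not called is therefore not shown to be unchanged. Ratios of partners were compared with exact permutation tests (scipy 1.17.1). Libraries of the same group differed by more than sampling noise.

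Members and lists were chosen with earlier results of these data known. Named genes are the 10 integrins, Gab2, called members and the 3 smallest p-values of each pathway list, the genes within 0.5 Mb of Itgam that mark its range, and the 2 genes most like each integrin (log2 CPM, prior count 2); the second for Itgax is not reported here. Ptprc, Haspin, Cerkl, Icam1, Fn1 and the marker examples lie outside this rule and were chosen after their values were seen. Lists of markers of primary granules, B cells, erythroid cells, mast cells and basophils, stem and progenitor cells and stroma were computed too. Alternatives were DESeq2 1.42.0, limma-voom, other scalings and filters, 2 groups alone, a replicate block, single mice left out and a pseudocount of 5 in ratios.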

Additional observations from a re-analysis of the deposited data

How the results depend on the processing

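The count of integrins changed between AML KO and AML WT was 1. It was 2 with DESeq2 (Itgax and Itgae), 0 with AML WT and AML KO mice alone and 0 to 1 without single mice. The trend called 1 integrin, 2 with DESeq2 and 0 to 2 without single mice. No integrin was called between AML HET and AML WT or between AML KO and AML HET in any alternative run. The pairs without overlap numbered 3, and 3 to 5 without single mice. This number can only stay or rise when a mouse is left out, so it is no test of stability. Deviations from the group mean had correlations of −0.51 to 0.29 between same-numbered mice and −0.36 to 0.46 between the others. Such deviations constrain one another in groups of 2 or 3 mice, so they cannot decide whether the replicate numbers pair the mice. With the replicate block, 0 integrins were called between AML KO and AML WT and 0 in the trend, and the Itgax log2 fold change was −1.08 (edgeR adjusted p = 0.202). The cause of these losses was not tested. Signs turned without single mice for Itgam (−0.077 to 0.10), Itgb2 (−0.33 to 0.086), Itgb7 (−0.14 to 0.067), Itga5 (−0.16 to 0.063) and Itga6 (−0.083 to 0.44), and with upper-quartile scaling for Itgb7 (0.0029), none of them called. Over all genes, calls between AML KO and AML WT numbered 278, 730 with DESeq2, 19 with the replicate block and 40 to 370 without single mice. For AML HET against AML WT, 3 genes were called, 59 with DESeq2 and 0 with the block. For AML KO against AML HET 0 genes were called (780 at an unadjusted p under 0.05 in edgeR) and 77 with DESeq2, and for the trend 351, 865 with DESeq2 and 125 with the block. The integrin with the fewest counts was Itgae, at 155 to 873 per mouse, and each group has 2 to 3 mice.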

Other observations

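The summed level of the 10 integrins was 2381, 2275 and 2166.1 CPM in AML WT, 2065 and 2155 in AML HET and 1797, 2435 and 1796 in AML KO mice. AML KO mouse 2 held the highest sum of all mice, and the other AML KO mice the lowest. The same mouse had the highest value of the 3 AML KO mice for all 10 integrins.

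Among the remaining marker lists, 7 of 8 erythroid genes were called higher in AML KO than in AML WT BM by edgeR. So were 4 of 5 mast cell and basophil genes and 1 of 6 stem and progenitor cell genes, against 2.09% of all genes called in either direction. Without AML WT mouse 2, and also with the replicate block, 0 genes of these 3 lists were called. The erythroid count was 1 without AML WT mouse 1, 3 without AML KO mouse 1 and 4 without AML KO mouse 3, and the stem and progenitor cell count was 0 without AML WT mouse 1, AML KO mouse 1 or AML KO mouse 3. The lists of 5 primary granule, 6 B cell and 6 stroma and endothelium genes each had 0 called by edgeR, with 3, 0 and 2 genes at an unadjusted p under 0.05 (17.7% of all genes in either direction). DESeq2, which called 730 of all 13305 genes, called 2 primary granule genes higher, 2 stroma and endothelium genes lower and 0 B cell genes. Stroma and endothelium genes, of cells that carry Itgb1 and its matrix receptors, summed to 654 to 1183 CPM in AML WT, 559 to 638 in AML HET and 359 to 623 in AML KO mice.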
